A study of Drosophila melanogaster with 2 samples.

Results

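The nuclear genes for mitochondrial ribosomal proteins of Drosophila melanogaster were followed in whole larvae with and without death of wing disc cells. Members were chosen by name: every array probe whose CG number belongs to a gene whose symbol starts with mRpL (large subunit) or mRpS (small subunit). This gave 71 genes with 1 probe each, 45 of the large and 26 of the small subunit, among 13130 genes represented by 14593 probes. The reference gene table names 73 such genes. mRpL34 had no matching probe, and the older transcript name that could stand for mRpL53 is shared with another gene, so both were left out. mRpL37 and mRpS34 were matched through older locus tags and the other 69 through current ones.

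The mitochondrial ribosome translates the few messenger RNAs of the mitochondrial genome, all of them for membrane subunits of the respiratory chain and ATP synthase. All of its proteins are encoded in the nucleus, made in the cytosol and imported. The small subunit reads the messenger RNA and the large subunit joins amino acids and passes the chain to the inner membrane. Both hold proteins with bacterial counterparts beside proteins found only in mitochondria. In flies, mutants of tko, a small subunit protein gene outside the mRpL and mRpS names, are known for slow larval development and seizures on mechanical shock.

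RNA of whole female larvae of the last instar was compared on 2 two-colour arrays, each with ablated larvae (rnGAL4,UASegr,tubGAL80[ts]/+) in 1 channel and control larvae (TM6,Tb[1],tubGAL80) in the other. In the ablated larvae a rotund GAL4 driver expressed eiger, the fly tumour necrosis factor that triggers cell death, in the wing disc pouch, and temperature-sensitive GAL80 held the driver in check. The controls carried GAL80 and, unlike the ablated larvae, the TM6 balancer with the Tubby marker, so marker and ablation cannot be told apart. Per the series design both were kept for 24 h at 30 °C, the titles give day 6, and the treatment text gives 18 °C, not 30 °C, as the temperature that lets the driver act. The wing discs are a small part of a whole larva, and in such a sample fewer cells of a type and less RNA per cell cannot be told apart.

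The dyes were swapped: the ablated larvae are in Cy5 on the first array and in Cy3 on the other. The labels do not say whether the 2 replicates are separate batches of larvae, and the spread behind each p-value may be technical only. On replicate 1, 38.1% (ablated) and 26.9% (control) of the 14785 gene spots exceeded the local background by 2 SD, against 17.6% and 15.0% on replicate 2. Among tissue markers, 6 of 6 fat body, 5 of 5 salivary gland, 4 of 7 midgut, 4 of 5 muscle, 4 of 5 wing disc, 4 of 5 epidermal and 1 of 3 blood cell genes were above background in at least 1 channel, and 0 of 5 testis genes. All 5 salivary gland genes were lower in ablated larvae on both arrays, with a median log2 ratio of -1.28 on replicate 1 and -1.98 on replicate 2. Of the 4 midgut genes tested, 2 were lower on both and 1 higher, and the lysozyme genes LysB (-1.89 and -1.91) and LysD (-1.63 and -1.35), close copies whose signals may not be separate, had the same sign on both arrays with the dyes as labelled. Lower on both arrays were also 3 of 6 fat body, 2 of 4 epidermal and 1 of 4 muscle genes. Of 4 wing disc genes and 1 blood cell gene 0 were lower on both, against 22.4% of all tested genes. Higher on both were 2 of 4 wing disc, 1 of 6 fat body, 1 of 4 muscle and 1 of 1 blood cell genes. Of 4 epidermal genes 0 were higher on both, against 24.5% of all tested genes. Of the markers 0 passed limma at an adjusted p of 0.05. The part of these tissues in the members' ratios was not tested. Across the 5971 genes tested, the ratios of the 2 arrays ran against each other (Pearson's r = -0.53, Spearman's rho = -0.23, across genes, which are not independent replicates). With r below -0.3 the direction of single genes is not settled. The labelled dyes were kept, and values with the sign of replicate 2 turned are given beside them. That turned mean is, by construction, also the mean ratio of the Cy5 to the Cy3 channel, so exchanged labels and a dye difference of the probe cannot be told apart.

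Most members were not above background. Of the 45 large subunit genes 21 (46.7%) were above background in at least 1 of 4 channels, and of the 26 small subunit genes 9 (34.6%), against 45.5% of all genes. In the large subunit 17 genes were above background in ablated and 16 in control larvae on replicate 1, and 6 and 4 on replicate 2. In the small subunit these numbers were 8 and 7 on replicate 1, and 4 and 4 on replicate 2. Detection thus fell from replicate 1 to replicate 2 as it did over the whole array, where 41.1% and 21.1% of genes were above background in either channel.

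**Figure D1:**
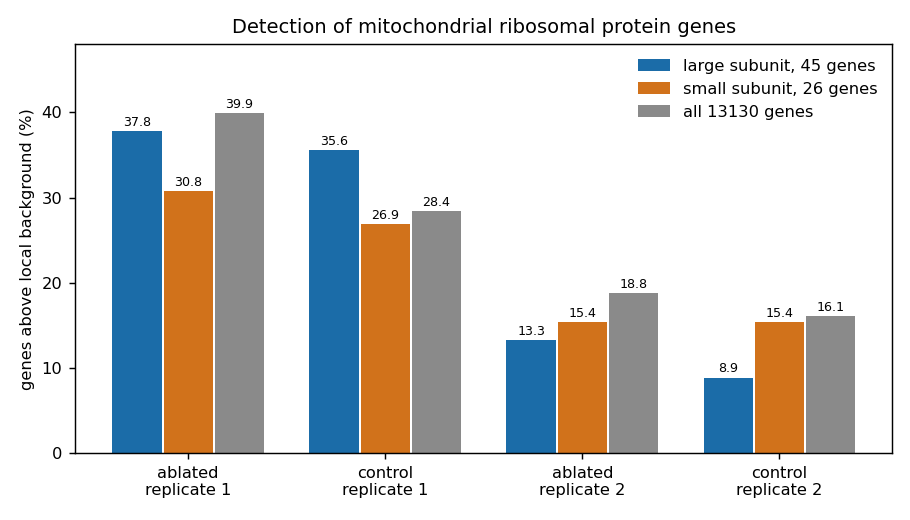
Percent of genes above local background (y axis) in each channel of each array (x axis), for the large subunit, the small subunit and all genes. The large subunit ranged from 37.8% in ablated larvae on replicate 1 to 8.9% in controls on replicate 2, and all genes from 39.9% to 16.1%.

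The arrays largely detected different large subunit genes. Of the 18 seen on replicate 1 and the 6 seen on replicate 2, 3 were seen on both (mRpL13, mRpL38 and mRpL41), which is 16.7% of the first and 50% of the second list. For the small subunit 3 genes (mRpS6, mRpS26 and mRpS30) were seen on both, 37.5% of 8 and 75% of 4. Over all genes the shared 2198 made up 40.7% of those seen on replicate 1 and 79.4% of those seen on replicate 2. Above background in all 4 channels were 3 of 26 small subunit genes and 0 of 45 large subunit genes, against 1234 of all 13130 genes.

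The remaining 41 members, 24 of the large and 17 of the small subunit, were above background in no channel and were not tested. Among them were mRpL11 and mRpL12, of the stalk where translation factors bind. Others were mRpL2 and mRpL3, whose bacterial counterparts form part of the ribosome core, and mRpL23, mRpS2, mRpS5 and mRpS10. Signals over background of the 24 ranged from -374 to 198 on replicate 1 and from -176 to 177 on replicate 2. The 17 included mRpS7, singled out after its values were seen, at 805 (ablated) and 52 (control) on replicate 1 and -164 and 62 on replicate 2. Its log2 ratios of 1.74 and -1.34 ran in opposite directions. Their log2 ratios otherwise rest on signals within the local background and are not read further.

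mRpL41 is a large subunit protein without a bacterial counterpart. Its signal over background was 8671 in ablated and 38009 in control larvae on replicate 1, and 1092 and 133 on replicate 2. It was therefore higher in controls on the first array and higher in ablated larvae on the second, where the control channel was not above background. Its log2 ratios of ablated to control were -2.78 and 1.87.

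mRpL38, which in mammals lies in the central protuberance at the top of the large subunit, did the same with 38 against 198 on replicate 1 and 3453 against 653 on replicate 2. Only the ablated channel of replicate 1 was not above background. Its log2 ratios were -0.78 and 1.99.

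mRpL50, another protein without a bacterial counterpart, gave 33 against 285 on replicate 1, neither above background, and 638 against 87 on replicate 2, where the ablated channel was above background. Its ratios were -1.15 and 1.47. Control larvae were above background on neither array, and the 1.12-fold excess in ablated larvae is the measured fold and no minimum.

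All 3 genes were brighter in Cy3 than in Cy5 on both arrays. In absolute size they had the largest ratios of replicate 2 in the large subunit. At least 2-fold differences on both arrays in opposite directions were found for mRpL41 and mRpL50, 2 of 21 tested genes, and for 346 of all 5971 (5.79%).

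**Figure D2:**
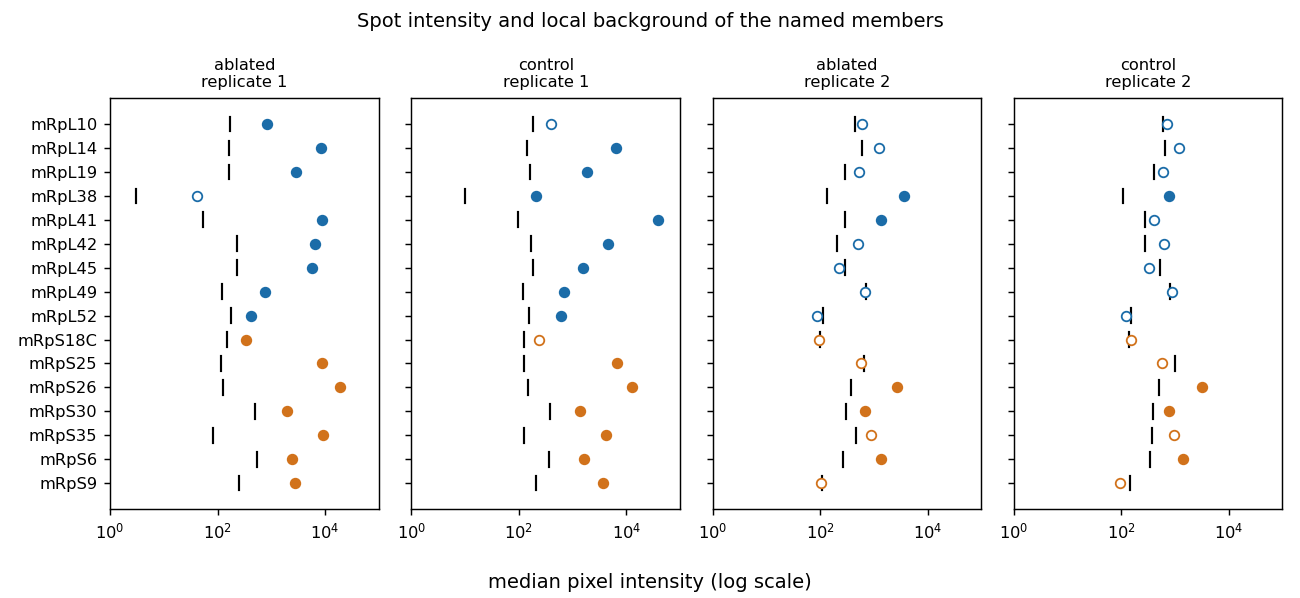
Median spot intensity (points, log scale, x axis) and local background (vertical ticks) of the 16 named members in each channel; filled points exceed the background by 2 SD, blue is the large and orange the small subunit. On replicate 2 most open points sit at or near their tick, and mRpS6, mRpS26 and mRpS30 are filled in all 4 channels.

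Other large subunit genes were above background on replicate 1 only. mRpL14, whose bacterial counterpart lies at the interface of the subunits, gave 8246 in ablated and 6344 in control larvae on replicate 1 and 648 and 536 on replicate 2. mRpL42 gave 6179 and 4328, then 298 and 355. mRpL19 gave 2769 and 1704, then 245 and 202. None of the 3 was above background on replicate 2. The log2 ratio of mRpL14 was -0.31 on replicate 1 and 0.11 on replicate 2. That of mRpL42 was -0.18 and -0.24, and that of mRpL19 -0.0068 and 0.072.

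The highest mean ratio among tested members was that of mRpL45, which in mammals holds the ribosome at the inner membrane beside the exit tunnel. It measured 5576 in ablated and 1392 in control larvae on replicate 1, both above background. On replicate 2 both channels lay below their local background, at -68 and -212. The log2 ratios were 1.21 and 0.55 (0.88 ± 0.46, SD, n = 2), and limma gave an adjusted p of 0.996. Only replicate 1 therefore measured this difference. With plain background subtraction replicate 2 gives no ratio for this gene. In the authors' deposited table its log2 ratios are 2.00 and -1.66.

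mRpL10, a stalk protein, followed mRpL45 and mRpL38 with ratios of 0.65 and 0.021. Its signals were 643 (ablated, above background) and 215 on replicate 1 and 156 and 135 on replicate 2. The controls were not above background on either array, and the measured 1.26-fold excess in ablated larvae is no minimum.

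At the other end, mRpL52 read -0.92 on replicate 1 and -0.067 on replicate 2, with signals of 243 (ablated) and 458 (control) on replicate 1 and -27 in both channels of replicate 2. For mRpL49 the ratios were -0.35 and -0.60, with 639 and 563 on replicate 1 and -36 and 54 on replicate 2. Both were above background on replicate 1 only. The difference of mRpL52 (-0.50 ± 0.61) was smaller than the spread between arrays and that of mRpL49 (-0.47 ± 0.18) was larger, at an adjusted p of 0.996 for each.

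The other 11 tested genes of the large subunit lay between those ends. mRpL1, the protein of the flexible stalk beside the exit site in bacteria, was below 0 on both arrays (-0.33 and -0.28), as was mRpL40 (-0.42 and -0.21). mRpL30 read -0.31 and -0.10, mRpL18 -0.018 and -0.44 and mRpL15 -0.068 and -0.23. mRpL22, whose bacterial counterpart lines the exit tunnel, was above 0 on both (0.39 and 0.17). Of these genes, mRpL15 was above background on replicate 2 only and the others on replicate 1 only. On replicate 2 the signals over background were -190 (ablated) and -156 (control) for mRpL1, and -13 and -52 for mRpL22. Each shared sign therefore rests on 1 array above background.

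Opposite signs were seen for mRpL13 (0.43 and -0.71), mRpL32 (-0.61 and 0.15), mRpL4 (-0.34 and 0.058), mRpL47 (0.30 and -0.085) and mRpL36 (0.023 and -0.093). Of these, mRpL13 was above background on both arrays, mRpL47 on replicate 2 only, and the others on replicate 1 only.

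In total 8 of 21 large subunit genes (38.1%) were lower in ablated larvae on both arrays, against 22.4% of all tested genes. A further 3 (14.3%) were higher on both, against 24.5%, and 10 had opposite signs, against 53.2%. Every gene with the same sign on both arrays was above background on 1 array only. Its sign on the other array therefore rests on signal that did not pass the background criterion. The 3 genes above background on both arrays (mRpL13, mRpL38 and mRpL41) had opposite signs. The split depended on the scaling: median centring in place of loess gave 6 lower and 5 higher, and the authors' deposited ratios gave 2 lower and 5 higher. The median log2 ratio was -0.31 on replicate 1, -0.067 on replicate 2 and -0.14 for the mean, against 0.0092 for the mean of all tested genes. On replicate 1, 15 of 21 lay below 0 (48.5% of all genes). On replicate 2 it was 11 of 21 (49.4% of all genes), and 15 of the 21 had neither channel above background there. At an adjusted p of 0.05 (Benjamini-Hochberg, limma) 0 of the 21 were called (0% of all genes), and 0 had an unadjusted p under 0.05 (2.41% of all genes, 144 in number). With the sign of replicate 2 turned, 7 were lower (26.1% of all genes) and 3 higher (27% of all genes) on both arrays, with a median of -0.029.

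**Figure D3:**
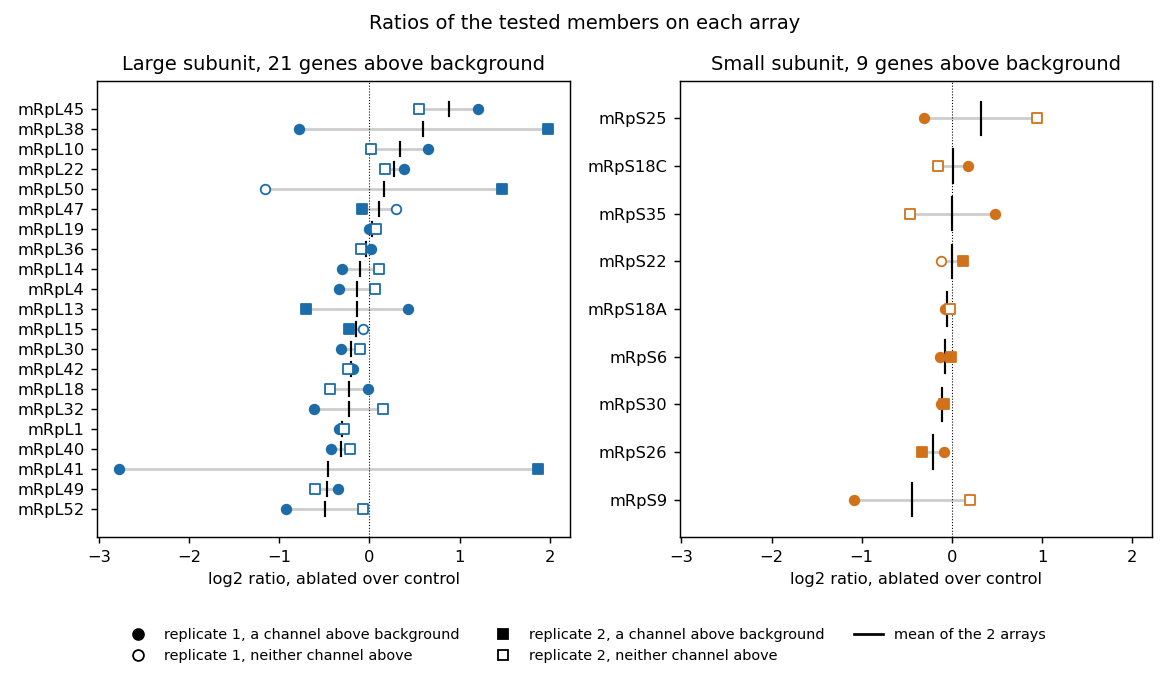
Log2 ratio of ablated to control larvae (x axis) of the 21 large and 9 small subunit genes above background in at least 1 channel, on replicate 1 (circles) and replicate 2 (squares), with the mean as a tick; open symbols had neither channel above background on that array. The widest gap is that of mRpL41, from -2.78 to 1.87, and the ratios of mRpS6, mRpS30 and mRpS18A lie close together near 0.

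In the small subunit mRpS6, mRpS26 and mRpS30 were above background in every channel. mRpS6, whose bacterial counterpart pairs with S18 on the platform of the subunit, gave 1900 in ablated and 1294 in control larvae on replicate 1 and 1119 and 1040 on replicate 2. Its log2 ratios were -0.13 and -0.014 (-0.073 ± 0.083), within the spread between arrays.

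mRpS30 gave 1463 and 999 on replicate 1 and 369 and 370 on replicate 2, with ratios of -0.13 and -0.087 (-0.11 ± 0.028). Despite its name, its mammalian counterpart lies in the large subunit, as does that of mRpS18A. The latter, with 591 and 415 on replicate 1 and -78 and -95 on replicate 2, had ratios of -0.081 and -0.020 and was above background on replicate 1 only.

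mRpS26, a protein without a bacterial counterpart, measured 19086 in ablated and 12696 in control larvae on replicate 1 and 2360 and 2747 on replicate 2. Its ratios of -0.093 and -0.33 (-0.21 ± 0.17) were below 0 on both arrays, at an adjusted limma p of 0.996. Over these 3 genes, measured in all channels, the ratios of single arrays ranged from -0.33 to -0.014 on the log2 scale.

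The ratios of single arrays lay further apart in mRpS9, mRpS25 and mRpS35. mRpS9, whose bacterial counterpart reaches the decoding centre, gave 2545 in ablated and 3492 in control larvae on replicate 1, and -5 and -48 on replicate 2. Its ratios were -1.09 and 0.20 (-0.45 ± 0.91). mRpS25 gave 8466 and 6510 on replicate 1 and -79 and -420 on replicate 2, with ratios of -0.31 and 0.94 (0.32 ± 0.88). In mRpS35 the signals were 9143 and 3995 on replicate 1 and 410 and 592 on replicate 2, with ratios of 0.48 and -0.47 (0.0065 ± 0.67). All 3 were above background on replicate 1 only, ran in opposite directions on the 2 arrays, and differed by less than the spread between them.

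mRpS18C and mRpS22 were each seen on 1 array. mRpS18C was above background only in ablated larvae on replicate 1, where it gave 191 against 118, with ratios of 0.17 and -0.16. mRpS22 was seen on replicate 2 only, at 536 and 434, with ratios of -0.12 and 0.13.

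Of the 9 small subunit genes 4 (44.4%) were lower in ablated larvae on both arrays (22.4% of all genes), 0 were higher on both (24.5%) and 5 had opposite signs (53.2%). The 4 were mRpS6, mRpS18A, mRpS26 and mRpS30, with ratios from -0.33 to -0.014. Members were grouped by symbol, and the mammalian counterparts of mRpS18A and mRpS30 lie in the large subunit. Median centring in place of loess, which moved the median of all tested genes to 0.14, gave 0 lower and 2 higher instead. The median log2 ratio was -0.12 on replicate 1, -0.020 on replicate 2 and -0.050 for the mean. None passed limma at an adjusted p of 0.05 (0% of all genes) and 0 had an unadjusted p under 0.05 (2.41%). With the sign of replicate 2 turned, 3 were lower (26.1% of all genes) and 2 higher (27%) on both arrays, with a median of -0.031.

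In the turned reading limma called 3 of the 30 tested members at an adjusted p of 0.05. That share is close to the 8.63% of all tested genes (515 of 5971). They are the large subunit genes described above. mRpL41 averaged -2.32 ± 0.64, with an adjusted p of 5.58e-10 in limma. For mRpL38 it was -1.39 ± 0.85, with an adjusted p of 0.000871 in limma, and for mRpL50 -1.31 ± 0.22, with an adjusted p of 0.00204 in limma. Each was lower on both arrays in that reading (4.25% of all genes were called and lower), which also means brighter in Cy3 than in Cy5 on both arrays. As labelled, the same genes averaged -0.45 ± 3.29, 0.60 ± 1.96 and 0.16 ± 1.85, all within the spread between arrays. mRpL45 was 0.33 ± 1.24 in the turned reading and was not called. Of the small subunit 0 were called. In this turned fit p followed the size of the mean: mRpL38 had a wider spread than mRpL50 and yet the smaller p. These p-values therefore do not measure how closely the 2 arrays matched for a single gene.

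**Figure D4:**
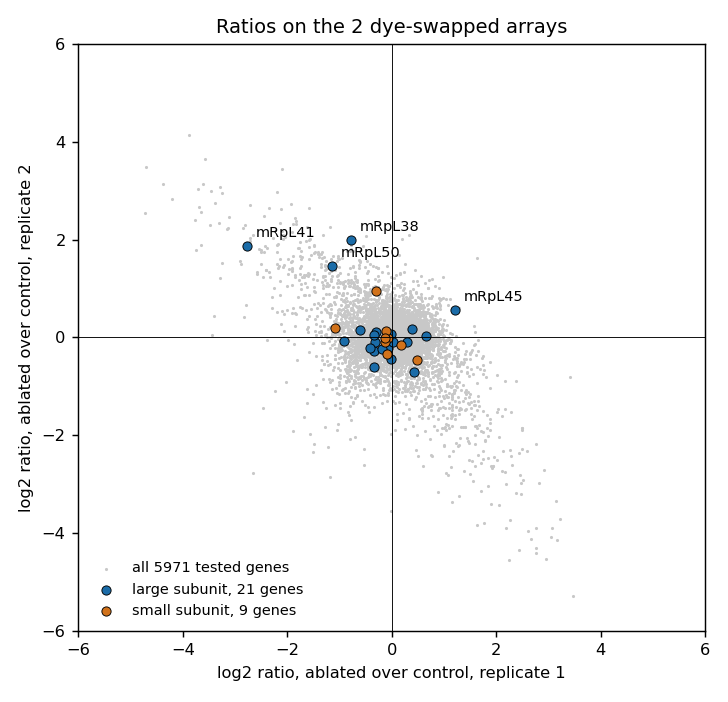
Log2 ratio of ablated to control larvae on replicate 1 (x axis) and replicate 2 (y axis) for all 5971 tested genes (grey) and the members (blue, large; orange, small). mRpL38, mRpL41 and mRpL50 lie up and to the left, with opposite signs on the arrays, mRpL45 is above 0 on both, and most members lie near the centre.

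Across the 21 large subunit genes the ratios of the 2 arrays had Pearson's r = -0.58 and Spearman's rho = -0.26, and across the 9 small subunit genes r = -0.51 and rho = -0.83. These are descriptions over genes that share the same 2 arrays, and the value for all genes was -0.53. Without the 2 genes farthest from the median of replicate 1 they were -0.53 and -0.69. The median SD between arrays was 0.25 for the 30 tested members and 0.28 for all tested genes. The mean exceeded the SD in 36.7% of members and 36.9% of all genes.

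Proteins of the mitochondrial ribosome known by other names gave the same kinds of pattern. tko, the small subunit protein of the decoding centre, was above background in all 4 channels, with signals of 2724 in ablated and 5353 in control larvae on replicate 1 and 4460 and 879 on replicate 2. Its log2 ratios of -1.59 and 1.99 had opposite signs, as in mRpL41, and it too was brighter in Cy3 on both arrays. With the sign of replicate 2 turned it averaged -1.79 ± 0.28, with an adjusted p of 4.50e-06 in limma. As for the members, that p does not measure the spread of tko itself between arrays. bonsai, a small subunit protein needed for larval growth, gave 2175 and 1424 on replicate 1 and 586 and 389 on replicate 2. Only the ablated channel of replicate 2 passed the criterion of 2 background SD, which neither channel of replicate 1 did. Its ratios were -0.084 and 0.33 (0.12 ± 0.29). Dap3 is listed in the reference as mRpS29, which was above background in no channel, and the bacterial control spots named DAP3 were not taken for it.

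Partners of the ribosome were measured as sparsely. Of 9 mitochondrial translation factors on the array 3 were tested. The mitochondrial elongation factor mEFTu2, which brings aminoacyl-tRNA to the ribosome, was above background in all channels with ratios of 0.52 and 0.35 (0.43 ± 0.12). The ribosome recycling factor mRRF2 read 0.45 and 0.26 and the release factor mRF1 read 0.32 and -0.90, each seen only in 1 channel. Of 15 mitochondrial aminoacyl-tRNA synthetases, which charge the tRNAs used in mitochondria, 7 were tested. The median of these 7 was -0.019, with LeuRS-m at -0.67 and -0.47, TyrRS-m at -0.67 and -0.0098 and SerRS-m at 1.39 and -0.45. All 7 lay below 0 on replicate 2 (49.4% of all tested genes). On replicate 1, 2 lay below 0 (48.5% of all tested genes) and 5 above. Only 3 of the 7 were above background on replicate 2. SerRS-m was above background only in the ablated channel of replicate 1.

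For mitochondrial DNA and its transcription, 3 of 11 genes were tested. TFAM, which packages mitochondrial DNA, read 0.036 and -0.16. The single-stranded DNA binding protein mtSSB read -0.58 and 0.12, and mTerf5, of a family that acts on mitochondrial transcription, read -0.033 and 0.26. Members of these lists that passed limma at an adjusted p of 0.05 numbered 0 in each.

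Cytosolic ribosomal proteins and the respiratory chain, the machinery made beside and with the products of the mitochondrial ribosome, were detected more often. Of 90 cytosolic ribosomal protein genes 74 (82.2%) were tested, with a median log2 ratio of -0.052, 24 lower and 18 higher on both arrays. RpL34b read -0.94 and -1.08. RpS14b read -1.12 and -0.67 and RpS10a read 0.53 and 0.61. Each of these 3 has a close copy in the genome, so its signal is uncertain. Of 82 genes of the respiratory chain and ATP synthase 49 (59.8%) were tested, with a median of 0.070, 8 lower and 14 higher on both arrays. Among them the complex I subunit ND-B14 read -1.51 and -1.16. UQCR-6.4 of complex III read 0.47 and 0.67, and COX7AL of complex IV read 0.85 and 0.68. Adjusted limma p was 0.996 for each of these 6 genes. RpS14b and UQCR-6.4 failed the background criterion in both channels of replicate 2, so their shared signs rest on replicate 1. RpL34b, RpS10a, ND-B14 and COX7AL passed it in both channels of replicate 1 but in a single channel of replicate 2. The values of all lists come from the same arrays, and differences between lists were not tested.

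In gene order, taken from the reference assembly, 0 pairs of the 71 members were direct neighbours among protein-coding genes. mRpL27 neighbours RpL27A of the cytosolic ribosome, mRpL55 neighbours ATPsynD of the ATP synthase, and mRpS9 neighbours ArgRS-m, a mitochondrial aminoacyl-tRNA synthetase. mRpL27 and mRpL55 were not tested.

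The median of the large subunit lay below that of all tested genes as reported and in 11 of 11 alternatives that could change a member's ratio or which members and arrays were used, by 0.036 to 0.32 on the log2 scale. These settings reuse the same 2 arrays. Aquantile and the mean over probes, also plotted, cannot change a member's ratio and are not counted. Its own sign changed, since it was 0.13 in the authors' deposited values, against 0.33 for all genes. That of the small subunit lay below in 10 of 12 such alternatives, the exceptions being print-tip loess and no filter on dim probes.

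**Figure D5:**
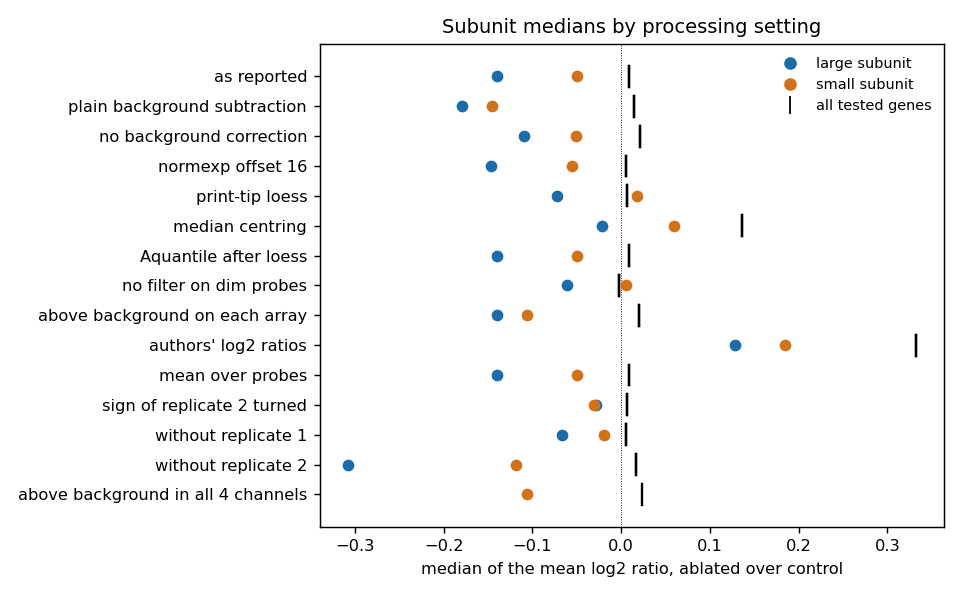
Median over tested members of the mean log2 ratio of ablated to control (x axis) for the large (blue) and small (orange) subunit under each processing setting (y axis), with the median of all tested genes as a black tick. The large subunit lies left of the tick in every setting shown for it, from -0.31 without replicate 2 to 0.13 in the authors' values.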

How the data were processed

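Per the file headers, GenePix Pro 7.1.25 was used for the scans. The deposited spot data hold the median intensity and the local background intensity of the Cy5 and Cy3 channels. They also give the percent of a spot's pixels that were saturated (deposited value 0 for every member). The authors also deposited a table of log2 ratios. It equals the scanner's uncentred log ratio on replicate 1 (r = 1) and runs the other way on replicate 2 (r = -0.998), so its direction on both is ablated to control. Its medians over gene spots, 0.498 and -0.115, are not centred.

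In limma 3.58.1 under R 4.3.3, normexp with an offset of 50 removed the background, and a loess curve that gave control spots no weight was fitted to each array. Copies of a probe were averaged. The criterion for above background was a spot median over the local background median plus 2 SD. The brightest probe above background in any of 4 channels stood for a gene (5971 genes). Signal over background is the spot median minus the local background median. Ratios were tested two-sided against 0 with lmFit and eBayes and Benjamini-Hochberg adjustment over all 5971 genes. The test was also run on simulated data. A count of 0 calls does not show that no gene changed. For a group below background on both arrays, a fold bound was taken from channel values after Aquantile. The number of arrays limits the precision.

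Gene names came from the reference gene table (assembly Release 6 plus ISO1 MT), 12688 probes by current locus tag, 873 by an older one and 387 by a synonym held by 1 gene, with 645 unmatched. Members, lists and rules were chosen with earlier results of these data known. Named members are those above background in all channels, the 6 of highest signal, the 3 highest and 3 lowest mean ratios and the smallest p in each subunit, and the 3 of smallest p in each other list; mRpL50 and the remaining tested members are given beyond that rule, after their values were seen. Signal ranks served only to choose named members, and levels of different probes are not compared. Alternatives covered background correction, normalization, filters, probes per gene, a variance trend, the authors' ratios, the sign of replicate 2 and each array left out. Probe, protein and promoter sequences were not used here, so the planned search for promoter motifs was not run.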

Additional observations from a re-analysis of the deposited data

How the results depend on the processing

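With the sign of replicate 2 turned, the number of genes called was 515 and of large subunit genes 3, and mRpL38 (-1.39) and mRpL50 (-1.31) changed sign and mRpL41 (-2.32) was called. In the other 12 alternatives with a test 0 genes were called. Genes at an unadjusted limma p under 0.05 ranged from 18 of 1208 tested to 477 of 13130 tested. The small subunit also had 0 called in each alternative.

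The large subunit median was 0.13 in the authors' values and the small subunit median 0.18, both below the median of all genes there (0.33). The small subunit median was -0.15 with plain subtraction and 0.059 with median centring. Leaving out 1 array gave -0.31 to -0.067 for the large and -0.12 to -0.020 for the small subunit. Median centring left 11 large subunit genes with the same sign on both arrays but split them into 6 lower and 5 higher, against 8 and 3 as reported. The number of large subunit genes with the same sign on both arrays, 11 of 21, was 5 with plain subtraction, 7 in the authors' values, 19 of 45 without a filter and 0 of 3 with a filter for detection on each array. For the small subunit, 4 of 9, it was 1 with print-tip loess, 2 with median centring, 2 in the authors' values and 13 of 26 without a filter. A filter for all 4 channels left 0 large subunit genes. The settings with filters also differ in which genes were tested. The cause of these changes was not tested.

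Over processing alternatives with the labelled sign, 20 of the 30 tested members had the opposite sign to the reported value in at least 1. Most of them did so in the authors' ratios, which are not centred (median of 0.33 over all tested genes). Some, such as mRpL1 and mRpL18, did so there only. The share over all genes was not counted. For 3 (mRpS9, mRpS22 and mRpS25) an alternative lay more than 1 from the reported log2 ratio, in each case the authors' ratios. No paired analysis was possible because each array already pairs 1 ablated with 1 control RNA and the ratio is the value tested.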

Other observations

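In the authors' deposited table many ratios of members come from channels that both lie at or below their local background. On replicate 2 this holds for 32 of the 60 members with a value, and on replicate 1 for 7 of 55. The share over all genes was not counted. Over all gene spots the median signal over background was 10 (ablated) and 1 (control) on replicate 2. It was 96 (ablated) and 93 (control) on replicate 1. A ratio of 2 negative differences is larger when the numerator lies further below its background. Of those 32, 22 had the opposite sign to the ratio after normexp and loess, against 4 of the 28 from channels above local background. The deposited value of mRpS25 on replicate 2 was -2.41 from signals of -79 (ablated) and -420 (control), where normexp and loess gave 0.94. That of mRpS14 on replicate 1 was 16.5, from signals of -23 and 0. On replicate 1 it went the other way: 2 of 7 ratios from channels at or below local background differed in sign, against 18 of 48 from channels above it. The deposited ratios of that array have a median of 0.498 over gene spots and are not centred. The cause of the differing signs was not tested.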
